A study of Homo sapiens with 21 samples.

Results

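Tri-C from enhancer viewpoints was compared between CTCF-depleted and control cells, both collected 96 h after the start of the conversion of B cells into macrophage-like cells. All libraries of these groups were taken: 102 of the 371 files of the series, from 6 of its 21 samples, which cover 51 gene loci. In Tri-C, cross-linked chromatin is cut with NlaIII, neighbouring ends are ligated, and reads that hold the captured viewpoint fragment together with at least 2 further fragments of the same chromosome (the reporters) are counted. Each count thus joins the viewpoint with a pair of reporters (a 3-way count). The reporters of a pair can be neighbouring fragments, and the share of such counts is given below. BLaER1 cells were used. This human line, derived from a B cell leukaemia, carries an inducible form of the myeloid transcription factor CEBPA and turns into induced macrophages (iMacs) when given 17β-estradiol, IL-3 and CSF-1. The depleted cells were the subclone CTCF-AID, in which CTCF carries an auxin-inducible degron, and they received 500 µM auxin together with the induction, with the medium renewed at 48 h. The labels name the 96 h control as BLaER, with neither the subclone nor auxin in its description, so loss of CTCF, the clonal origin of the subclone and the auxin itself cannot be told apart. Each group had 3 biological replicates, of 3 technical replicates each, which were pooled before deposit, so 1 library per group was available at every locus. No test between conditions was therefore possible and no p-value is given. No file compared here holds CTCF levels or expression, and neither the depletion nor the identity of the cells could be checked in them.

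The 51 viewpoints are enhancers, 36 of them at genes active in iMacs (iMac loci) and 15 at genes of the B cell programme (B cell loci). The iMac loci comprised 13 transcription regulators such as CEBPA, IRF8, KLF4 and NFKBIZ, 13 surface and secreted proteins such as CCR1, CD14 and SRGN, and 10 signalling and other genes such as LYN and TRIB1. The B cell loci comprised 4 transcription factors, among them PAX5, EBF1 and MYB, 7 B cell receptor and recombination genes such as RAG2, DNTT and IL7R, and 4 others. In the current view of genome folding, cohesin extrudes loops of chromatin and is held up where it meets CTCF bound to its motif in the orientation that points into the loop, which sets the boundaries of topologically associating domains. Within a domain, enhancers contact promoters and other elements more often than across its boundary, and CTCF bound near promoters can take part in such contacts. For each locus, 3 positions were therefore followed: the enhancer viewpoint (E), the start of its target gene (P) and the CTCF-binding site at the domain boundary that the study had selected (C). The promoters lay 21.3 to 588.2 kb from the viewpoints, with a median of 66.7 kb, and the boundary sites 21.3 to 819.2 kb, with a median of 140.3 kb. By the GENCODE annotation, 35 viewpoints were intergenic and 16 intronic, while 25 boundary sites lay in introns, 24 between genes and 2 in exons. Promoter and boundary site lay on the same side of the viewpoint at 25 loci and on opposite sides at 26.

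The sequences of a pair of viewpoint fragments show what was captured. The NlaIII sites that bound each fragment are in capitals, and the sequences are the plus strand of hg38. The CCR1 viewpoint, between genes on chromosome 3, spans chr3:46089518-46089663 with its flanking sites, and the NFKBIZ viewpoint, also intergenic, spans chr3:101937227-101937434.
CCR1 viewpoint: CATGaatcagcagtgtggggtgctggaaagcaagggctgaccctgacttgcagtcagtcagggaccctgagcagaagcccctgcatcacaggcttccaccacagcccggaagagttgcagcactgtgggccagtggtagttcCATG
NFKBIZ viewpoint: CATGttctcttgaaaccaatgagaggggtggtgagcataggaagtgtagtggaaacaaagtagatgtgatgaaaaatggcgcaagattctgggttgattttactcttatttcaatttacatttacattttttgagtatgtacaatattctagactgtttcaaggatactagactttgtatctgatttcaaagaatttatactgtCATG

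CTCF sites were read for the CTCF core motif, searched on both strands within 100 bases of each CTCF site that the study lists from separate Micro-Capture-C libraries, with at least 12 of its 14 letters matching. A match was found in 336 of the 513 listed sites within 1 Mb of a viewpoint (65.5%), against 8.05% of the 287640 tiles of 390 bases across the same regions. A match is described as pointing toward the viewpoint or away from it, and is no evidence of binding. At 39 of the 51 boundary positions a listed site lay within 1 kb. Of these, 31 held a match, which pointed toward the viewpoint at 28 loci and away from it at 3, SRGN, PELI1 and CD38. The sequences below are printed on the strand of the motif, with the matched core in capitals. The first 6 are boundary sites whose motif points toward the viewpoint, and the next pair are boundary sites whose motif points away from it.
NFKBIZ boundary, intron of ZPLD1, chr3:102225586-102225611, minus strand: aaagtgCCACTAGAGGTCAGattaag
LMO2 boundary, intergenic, chr11:33858021-33858046, plus strand: tgatggCCAGAAGGTGGCGCtctgca
IRF8 boundary, intergenic, chr16:86016565-86016590, minus strand: gtttgtTCACTAGAGGGAGCcagtgc
CEBPA boundary, intron of PEPD, chr19:33407003-33407028, minus strand: aactggCCAGAAGAGGGCAGtgttgt
IL10RA boundary, intron of SMIM35, chr11:118053569-118053594, minus strand: tttcagCCACCAGAGGGCGCtcaggt
MPEG1 boundary, intergenic, chr11:59430103-59430128, minus strand: atatttCCACTAGGTGGCAGcaacat
SRGN boundary, intron of KIFBP, chr10:69007436-69007461, minus strand: ttatgcCCTCTAGGTGGCTGgtaaat
PELI1 boundary, intergenic, chr2:64331037-64331062, plus strand: cagcagGCACTAGGTGGCGCtagatc
The listed sites at the CCR1, KDM7A, MYB and IRAG2 boundaries held no match, and their best alignments agreed in 11 letters. A further set of listed sites with a match is printed because their counts were among those that changed most of the single sites described later, the first 4 downward and the last pair upward.
IRAG2, intron of DNAI7, chr12:25130872-25130897, minus strand: agtttgCCACTAGAGGGCTCttaata
DNTT, intron of CC2D2B, chr10:96017385-96017410, plus strand: taagtgCCACTAGATGGCAGtaaaca
PELI1, intergenic, chr2:64049876-64049901, plus strand: tgttttACAGCAGGTGGCAGcctttc
RAG2, intergenic, chr11:36747216-36747241, minus strand: agttgcCCTCCAGATGGCAGcccaga
KDM7A, intron of SLC37A3, chr7:140343315-140343340, minus strand: tgggccTCAGTAGGTGGCACtcttgt
DDIT4, intergenic, chr10:72364446-72364471, plus strand: ttcttgCCAGCAGGTGGCACttgaag

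The libraries differed in their make-up at every locus, before any element was considered. The control files held 3823843 counts in all, 34249 to 167453 per locus, and the depleted files 5273712, 51478 to 286909 per locus. Within 1 Mb of the viewpoint, counts whose reporters were neighbouring fragments made up a median of 39.1% in the control and 52.5% in the depleted library, and were more frequent after depletion at 51 of 51 loci. Counts from fragment pairs seen only once made up 34.6% and 18.3%. Conversely, distant counts, in which over 10 kb separated each reporter from the viewpoint and the reporters from one another, fell from a median of 29.0% to 18.5%, a median log2 ratio of the odds of −0.76 (exact 95% interval over loci −0.79 to −0.69). The fall was present at 51 of 51 loci, and with neighbouring pairs left out its median was −0.38 and it passed the rule described next at 25. These shares move with every window described here, and their part in each result was not tested. Results are therefore given on 3 scales: the share of all counts within 1 Mb, the same with neighbouring pairs left out, and the share of distant counts alone, which compares only the distribution among distant contacts.

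A window was called higher or lower where the odds of its share differed by more than 1.3-fold between the libraries, the exact 95% interval of the log2 ratio lay on that side of 0 and at least 20 counts were present over both libraries. In what follows, rose and fell refer to this rule. Intervals of shares are Clopper-Pearson intervals, and all intervals of single windows cover counting error only: counts from 1 read are not independent and the reads carried no molecular identifiers. The same rule was applied to 9395 windows of 10 kb along all loci as background. Of these, 37.1% fell and 14.0% rose as a share of all counts within 1 Mb, 22.0% fell and 26.8% rose with neighbouring pairs left out, and 13.2% fell and 36.1% rose as a share of distant counts. Among the 1937 windows within 200 kb of the viewpoint 70.7% fell, and among the 998 between viewpoint and boundary site 82.8% did.

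The first comparison asked whether 3-way contacts that include the target promoter (E-P-X, a distant count with a reporter in the 12 kb around the gene start) differed after depletion. At 45 of 51 loci the promoter window fell, and at none did it rise. The median log2 ratio was −0.93 (−1.07 to −0.75). Of the 40 promoters within 200 kb 37 fell, beside 70.7% of all windows at those distances that fell and 6.04% that rose. The median share went from 1.89% to 0.866% of the counts within 1 Mb. All 13 myeloid transcription regulators fell (median −0.98), as did all 10 signalling and other myeloid loci (−0.92) and 12 of 13 myeloid surface and secreted proteins (−1.08). Falls were seen at 6 of 7 loci of the recombination and receptor genes (−0.75), at 3 of the 4 remaining B cell genes (−0.72) and at 1 of 4 transcription factors of the B lineage (−0.27). Over classes, 35 of 36 iMac loci fell (median −1.06), as did 10 of 15 of the B cell class (−0.65). As a share of distant counts, 27 of 51 promoter windows fell and 2 rose, with a median of −0.38 (−0.50 to −0.21), against 27.1% of windows within 200 kb that fell on that scale. On this scale the median was −0.45 over the iMac class and −0.13 over the B cell class. Less the median of all windows at a similar distance, the median was −0.23 and 15 loci still passed the rule as lower. After this adjustment MYB and CREG1, which had not fallen as a share of all counts, passed as higher. Rises over all loci are not given on this adjusted scale. The share of all windows called was not taken on it either.

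CCR1, a receptor for inflammatory chemokines on monocytes and macrophages, had the largest fall. Its promoter, 118.7 kb from the viewpoint, took part in 4985 counts in the control and 1046 in the depleted library, which was 6.32% (6.16 to 6.50) and 1.34% (1.26 to 1.42) of the counts within 1 Mb. The log2 ratio was −2.31 (−2.41 to −2.22) and −1.76 among distant counts, so that most of the fall was present within distant contacts. KLF4, a zinc finger factor of monocyte differentiation, went from 399 to 149 counts, 0.724% to 0.225% (log2 −1.69). RBPJ, the DNA-binding effector of Notch signalling, went from 1266 to 447 counts, 2.18% to 0.703% (−1.65). CD93, a surface glycoprotein of myeloid cells, went from 781 to 282 counts (−1.58), and PTPRC, which encodes the leukocyte phosphatase CD45, from 420 to 237 (−1.51). Each of these 5 loci also fell as a share of distant counts, with log2 ratios from −1.76 at CCR1 to −0.78 at CD93.

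Other promoters with many counts fell by less. SRGN, the core protein of haematopoietic granule proteoglycans, had a promoter 26.6 kb from its viewpoint with 1493 counts in the control and 982 after depletion, 4.92% (4.68 to 5.16) and 2.34% (2.20 to 2.49), a log2 ratio of −1.11. NFKBIZ, an inducible nuclear regulator of inflammatory genes, went from 2.47% (1361 counts) to 1.27% (678 counts), a log2 ratio of −0.97 that was −0.28 among distant counts and no longer passed the rule. TRIB1, a pseudokinase that controls the turnover of CEBPA, went from 1.36% to 0.789% (−0.79), and this too did not pass among distant counts, at −0.14. IRF8, a factor that directs monocyte development, went from 1.58% to 0.866% (−0.88) and remained past the rule among distant counts at −0.50. KDM7A, a histone demethylase, went from 2.41% to 1.39% (−0.81 and −0.38), and LYN, a Src family kinase, from 3.00% to 1.16% (−1.40 and −0.68). The promoter of CEBPA, whose endogenous gene lies 30.1 kb from its viewpoint, went from 1286 to 1316 counts, 2.31% to 1.57% (−0.57). KLF6, another zinc finger factor, went from 1.89% to 1.40% over 346.4 kb (−0.44). Both were near 0 among distant counts, at −0.09 and 0.14, and IL10RA, the ligand-binding chain of the IL-10 receptor, was at −0.84 and −0.40. LMO2, a haematopoietic LIM-domain adaptor, fell on the first scale only, from 1.89% to 1.34% (−0.51), and stood at 0.03 (−0.13 to 0.19) among distant counts.

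At the B cell loci the promoter of RAG2, a subunit of the V(D)J recombinase, fell from 2.50% (875 counts) to 1.25% (584 counts), a log2 ratio of −1.02. Those of IL7R, the receptor chain for IL-7, and IRAG2, a membrane protein of lymphocytes, fell by 0.56 and 0.60 on the log2 scale and were both at −0.01 among distant counts. PAX5, the factor that maintains B cell identity, went from 210 to 181 counts (−0.92). The 6 loci that did not pass were MYB at −0.33, CD38 at −0.39, RORB at −0.31, BCL11A at −0.20, CREG1 at −0.12 and EBF1 at −0.11. MYB, a factor of haematopoietic progenitors, had 398 and 423 promoter counts, 0.892% (0.807 to 0.983) and 0.708% (0.643 to 0.779). EBF1, a B lineage factor whose start lies 588.2 kb from its viewpoint, had 166 and 208 counts, and CREG1, a lysosomal glycoprotein gene, had 537 and 717. These last 2, EBF1 at 0.39 and CREG1 at 0.40, were the promoters that rose as a share of distant counts.

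**Figure D1:**
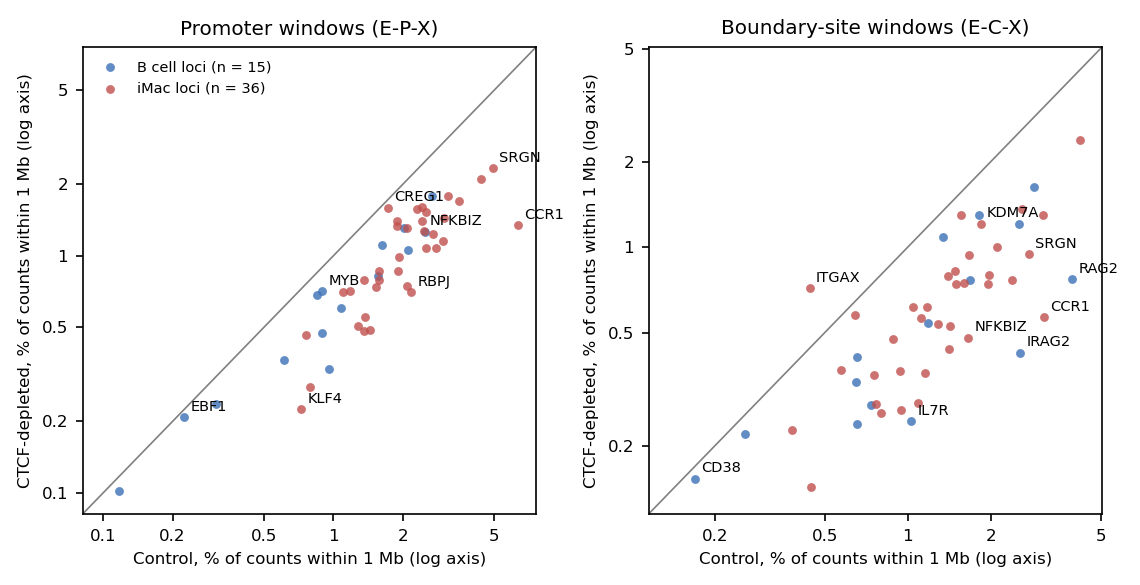
Share of the 3-way counts within 1 Mb that hold the target promoter (left, E-P-X) or the boundary CTCF site (right, E-C-X) in the 96 h control (x axis, %, log) and the CTCF-depleted library (y axis, %, log), 1 point per locus, red for the 36 iMac loci and blue for the 15 B cell loci, with the line of equal shares. All 51 promoter points lie below the line, CCR1 farthest at 6.32% against 1.34%, and ITGAX is the single boundary point above it.

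The boundary sites themselves were compared next, as distant counts with a reporter in the 12 kb around the site (E-C-X). The boundary window fell at 45 loci of 51 and rose at a single one. The median log2 ratio was −1.10 (−1.36 to −0.94), with median shares of 1.34% and 0.567%. Of the 32 sites within 200 kb of the viewpoint 29 fell and 1 rose, beside 70.7% of windows at those distances that fell and 6.04% that rose, and of the 19 farther away 16 fell, beside 28.4% of windows that fell and 16.0% that rose. The median was −1.10 in the iMac class, where 33 of 36 fell, and −1.09 in the B cell class, where 12 of 15 did. All 13 myeloid transcription regulators fell, with a median of −1.44. At the 19 loci with a boundary site more than 200 kb away the median was −1.46, against −0.86 at the 7 loci with a site 20 to 50 kb away, while the median of all 10 kb windows went from −0.80 at 16 to 50 kb to −0.29 at 200 to 500 kb. Among distant counts 35 windows fell and 1 rose, with a median of −0.55. Within 200 kb 22 fell and 1 rose, beside 27.1% and 18.9% of windows, and farther away 13 of the 19 fell, beside 9.59% that fell and 40.5% that rose. Less the windows at a similar distance, the median was −0.50.

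IRAG2 had the largest fall, from 1202 counts in the control to 259, or 2.56% (2.42 to 2.70) to 0.425% (0.375 to 0.480), a log2 ratio of −2.62 (−2.82 to −2.42). Its boundary site lies 121.1 kb away in an intron of DNAI7. At CCR1 the boundary window, 288.8 kb from the viewpoint, went from 2448 to 442 counts, 3.11% to 0.567% (−2.49). At RAG2, where the site lies in an intron of RAG1, it went from 1380 to 358 counts, 3.95% to 0.769% (−2.41). These 3 falls were also present among distant counts, at −2.10, −1.88 and −1.85. IL7R fell from 747 to 217 counts over 819.2 kb (−2.08), and FOSL2, an AP-1 subunit, from 413 to 140 over 497.0 kb (−1.95). TRIB1 fell from 749 to 264 counts (−1.84), and NFKBIZ, with the motif printed above, from 911 to 256 (−1.80). SRGN, whose boundary motif points away from the viewpoint, fell from 832 to 397 counts (−1.56), and MYB, whose promoter window had not passed the rule, fell from 292 to 142 (−1.46). The windows of CEBPA, IL10RA, LMO2, MPEG1 and IRF8, the other loci with a printed motif toward the viewpoint, fell by 1.09, 0.95, 1.03, 1.00 and 0.86 on the log2 scale. KDM7A fell by 0.61 from 537 and 770 counts, which was −0.17 among distant counts and did not pass there. ITGAX, which encodes the integrin αX subunit CD11c, was the exception: its boundary window, in an intron of ARMC5, rose from 217 to 447 counts, 0.440% to 0.718%, a log2 ratio of 0.71 (0.47 to 0.95) and 1.24 among distant counts. No listed CTCF site lay within 1 kb of this position, which was also so at RAG2, whose window fell.

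Counts that joined promoter and boundary site in 1 read (E-P-C) show both partners with the enhancer at once. The windows overlapped at CD14, MXD1, KLF4 and LMO2, which left 47 loci, and 28 of these reached 20 counts over both libraries. Of the 28, 20 fell and none rose, with a median log2 ratio of −1.77 (−2.17 to −0.96), and among distant counts 18 fell with a median of −1.26. Of all 10 kb windows, which are single windows and not pairs, 37.1% fell on the first scale and 13.2% among distant counts. Within 200 kb these were 70.7% and 27.1%. CCR1 had 301 E-P-C counts in the control and 15 after depletion, 0.382% (0.340 to 0.427) and 0.0192% (0.0108 to 0.0317), a log2 ratio of −4.27 (−5.17 to −3.57). IRAG2 went from 72 to 6 counts (−3.85), NFKBIZ from 53 to 9 (−2.45) and CCL2, a monocyte chemoattractant, from 90 to 21 (−2.41). RAG2 went from 111 to 35 (−2.07), SRGN from 129 to 52 (−1.77), CEBPA from 69 to 30 (−1.78) and IL10RA from 71 to 29 (−1.76). LYN went from 80 to 18 (−2.25), TRIB1 from 30 to 8 (−2.17) and MPEG1, a pore-forming protein of macrophages, from 23 to 7 (−2.22). KDM7A, with 29 and 44 counts (−0.53), IRF8, with 11 and 20 (−0.19), and RORB, with 15 and 16 (0.08), did not pass the rule. Each triple was also set against the product of its own promoter and boundary windows, at the 30 loci where that product gave at least 10 counts in each library, with a pseudocount of 0.5 on the triple. The ratio had a median of 0.682 in the control and 0.594 after depletion, a median log2 change of −0.10 (−0.54 to 0.25), with 17 of 30 loci below 0. CCR1 was at −0.23, NFKBIZ at −0.40 and IRAG2 at −1.26 on this measure, while RAG2 was at 0.62. The interval spans 0, and falls and rises of the triple relative to its windows both lie within it.

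**Figure D2:**
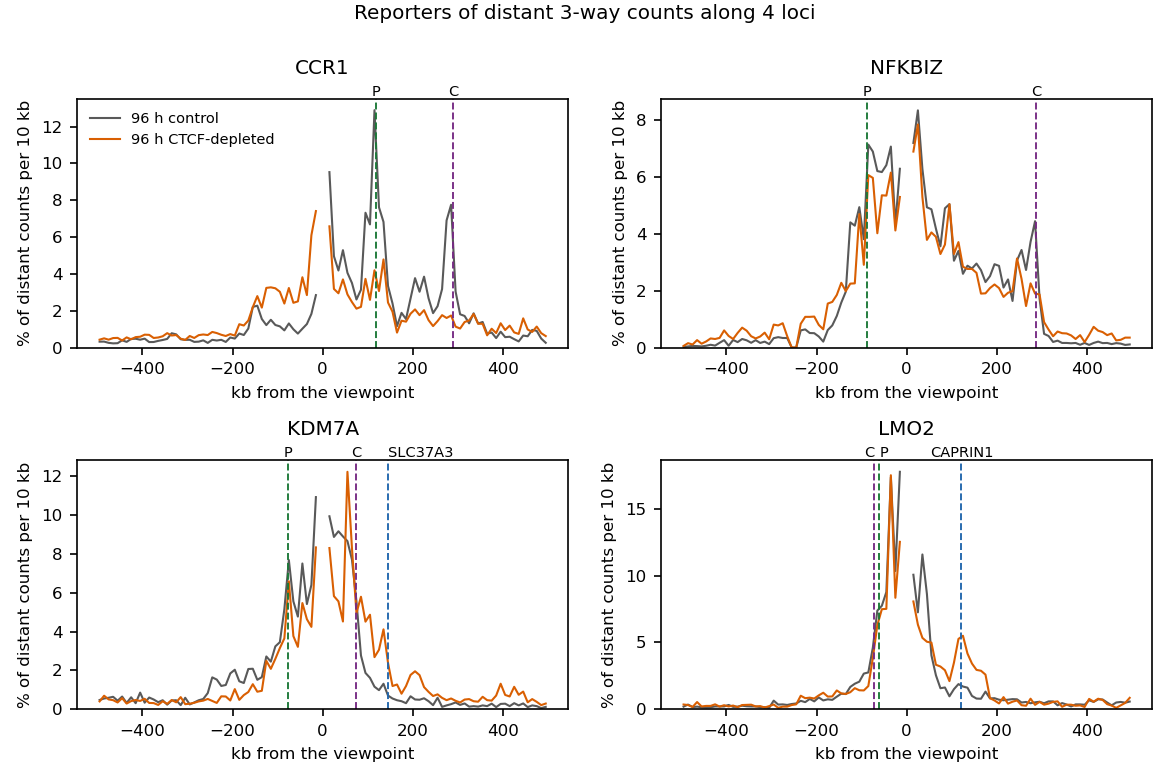
Percentage of distant 3-way counts with a reporter in each 10 kb window (y axis) against the distance from the viewpoint in kb (x axis) at CCR1, NFKBIZ, KDM7A and LMO2, in the control (grey) and the CTCF-depleted library (orange), with dashed lines at the promoter (P), the boundary site (C) and the genes SLC37A3 and CAPRIN1. The control peaks at P and C of CCR1 are lower after depletion while the opposite side of the viewpoint is higher, and the orange line lies above the grey one beyond C at KDM7A and around CAPRIN1 at LMO2.

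Contacts across the boundary were measured as the share of distant reporters on the side of the boundary site that lay beyond it, leaving out 12 kb centred on the site. It is taken among distant reporters of 1 side, so neighbouring pairs do not enter it, but it does follow the distances of the contacts, which were greater after depletion as given below. The share rose at 41 of 51 loci and fell at 1, and the median log2 ratio was 0.70 (0.58 to 0.88), with median shares of 32.5% and 45.7%. Among the 3656 windows beyond the boundary sites, 49.3% rose and 5.11% fell as a share of distant counts, and 21.1% rose and 19.7% fell as a share of all counts. For comparison, the same share was taken at the mirrored position, equally far on the other side of the viewpoint, whatever elements lie there. Beyond the mirrored position the median log2 ratio was 0.37 (0.14 to 0.57), with median shares of 37.5% and 49.6%, and 25 of the 51 rose while 2 fell. The crossing less its mirror had a median of 0.26 (0.10 to 0.57) and was above 0 at 34 of 51 loci and below 0 at 17. Of the 32 sites within 200 kb 27 rose, against 13 mirrored positions, and of the 19 farther away 14 rose, against 12. This comparison was added after the data were seen. Of the iMac class 30 of 36 loci rose, and of the B cell class 11 of 15. All 4 B lineage transcription factor loci rose, with a median of 0.71, including EBF1 and MYB, whose promoter windows had not passed.

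KLF4 went from 12.3% (11.7 to 12.9) to 31.5% (30.6 to 32.5) beyond its site, a log2 ratio of 1.72. KDM7A went from 31.5% to 59.9% (1.70) and CCR1 from 17.6% (17.2 to 17.9) to 40.3% (39.7 to 41.0), a log2 ratio of 1.67. These 3 loci had sites 269.1, 73.6 and 288.8 kb away, and their mirrored positions were at 0.13, −0.01 and −0.70. PTPRC went from 32.5% to 56.5% (1.43), RBPJ from 19.5% to 38.8% (1.39) and NFKBIZ from 10.9% to 23.6% (1.33). The mirrored position was at 0.02 for PTPRC and 0.44 for RBPJ, but at 1.43 for NFKBIZ, above its boundary. CCL2 rose by 1.16, IRF8 by 1.14, SRGN by 1.11, RAG2 by 0.97, PAX5 by 0.88, MYB by 0.80 and TRIB1 by 0.75 on the log2 scale. Their mirrored positions were, in that order, at 0.61, 0.42, −0.18, −0.04, 0.12, 0.27 and 1.03. At TRIB1 the mirrored position thus lay above the boundary, as at NFKBIZ. IGLL1, a surrogate light chain gene of precursor B cells, was the 1 locus that fell, from 68.6% to 61.8% (−0.44). No listed CTCF site lay within 1 kb of its boundary position, which was also so at KLF4 and PTPRC, where the share rose. The loci that passed in neither direction included LMO2, from 37.3% to 41.8% (0.27), CD93, FOSL2, IL7R, CITED2, MPEG1, CD38 and IRAG2. IRAG2 had lost most contacts with its boundary site and went from 43.6% to 45.7% beyond it (0.13). That share includes the 10 kb window 135 kb from the viewpoint, which lies beyond the site and itself went from 1077 to 177 counts.

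**Figure D3:**
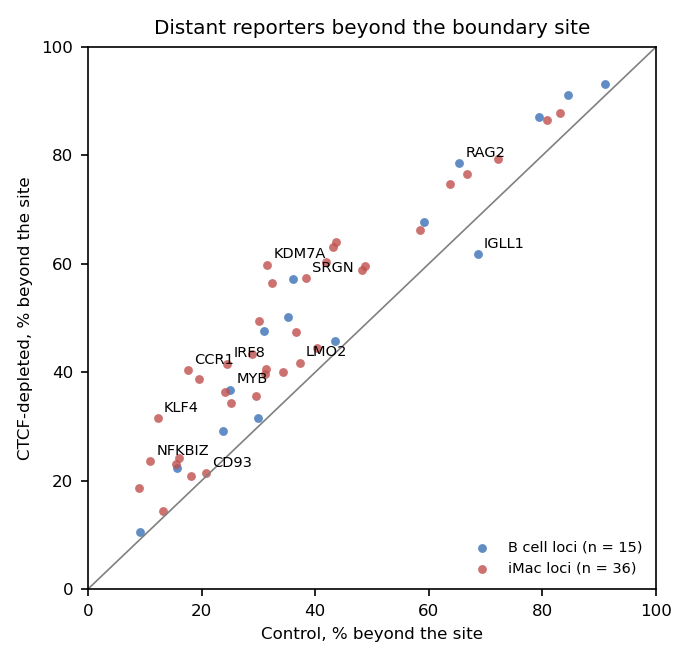
Share of distant reporters on the side of the boundary site that lie beyond it (%), in the control (x axis) and the CTCF-depleted library (y axis), 1 point per locus, with the line of equal shares. Among the points well above the line are KDM7A (31.5% and 59.9%), PTPRC (32.5% and 56.5%) and CCR1 (17.6% and 40.3%), and IGLL1 is the point below it.

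The balance between both sides of the viewpoint moved at fewer loci. The share of distant reporters on the side of the boundary site rose at 9 of 51 loci and fell at 5. At CCR1, where promoter and boundary site lie on the same side, it fell from 77.4% to 58.1% (log2 −1.31), as the profile of that locus shows. At IL7R it fell from 78.6% to 63.9%, and at IRAG2 from 66.1% to 49.5%. At KDM7A it rose from 41.0% to 56.5% (0.90), and at DDIT4, a stress-induced regulator of mTOR, from 20.5% to 36.5% (1.15). Counts with 1 reporter on each side of the viewpoint rose at 3 loci: at CCR1 from 25.5% to 39.3% of distant counts, at DDIT4 from 22.7% to 32.8% and at IL7R from 24.8% to 33.9%.

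Distance alone separated the libraries too. Among distant reporters, the median share at 10 to 25 kb went from 13.1% to 11.3% (log2 −0.21), at 25 to 50 kb from 13.8% to 11.5% (−0.28) and at 50 to 100 kb from 17.6% to 14.8% (−0.19). Between 100 and 200 kb the shares were 18.6% and 17.7% (−0.10). The share at 200 to 500 kb went from 21.3% to 25.2% (0.25) and rose at 18 loci, and that at 500 to 1000 kb went from 12.2% to 17.6% (0.56) and rose at 33 loci. Distant contacts thus lay farther from the viewpoint in the depleted library, which is why the window results above are also given against windows at a similar distance and the crossing against its mirrored position.

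Element classes were compared over all listed elements: each distant reporter was given the class of the nearest listed CTCF site, enhancer or promoter within 6 kb, or none. By the paper's methods, the listed elements come from Micro-Capture-C peaks combined over time points of the conversion, and no depleted cells are named there. Positions contacted only after depletion would thus count as outside the list. This favours falls of the listed classes and a rise outside them in advance. Pairs of reporters both at CTCF sites fell most, with a median log2 ratio of −1.31 and a fall at 47 of 50 measured loci. Beside this, 37.1% of all single 10 kb windows fell, and 70.7% of those within 200 kb. Pairs of a CTCF site and a promoter had a median of −1.11, of 2 enhancers −1.08, of an enhancer and a promoter −1.05, and of a CTCF site and an enhancer −1.03. Pairs with 1 reporter outside the listed elements had medians of −0.78 for CTCF sites, −0.69 for enhancers and −0.60 for promoters. Pairs with both reporters outside had −0.44, from a median of 13.7% to 11.0%. As a share of distant counts the order was similar but the last class was higher after depletion, from 43.9% to 53.4% (0.43), with a rise at 31 loci and a fall at 1, while pairs of CTCF sites fell at 39 loci (−0.76) and pairs of enhancer and promoter had a median of −0.42. Of all single 10 kb windows, 13.2% fell and 36.1% rose on that scale. Set against the product of the counts of each class, pairs of CTCF sites had a median log2 change of −0.04 (−0.16 to −0.0032), with 29 of 44 loci below 0, and pairs of a CTCF site and an enhancer one of 0.09 (0.06 to 0.13), with 15 of 50 below 0. The intervals of the other pairs spanned 0: the median was 0.05 (−0.09 to 0.14) for a CTCF site with a promoter, 0.05 (−0.03 to 0.11) for 2 enhancers and 0.08 (−0.04 to 0.21) for an enhancer with a promoter.

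Among single loci, pairs of CTCF sites seen from EPS8, an actin regulator, went from 106 to 19 counts (log2 −3.10). Those from IRAG2 went from 509 to 125 (−2.41) and those from NFKBIZ from 214 to 45 (−2.19). At CCR1 the pairs of CTCF sites went from 2007 to 607 (−1.73) and those of enhancer and promoter from 1381 to 197, 1.75% to 0.253% (−2.81). CCR1 also had more counts outside the listed elements after depletion, 6255 and 8729, or 7.94% and 11.2% of the counts within 1 Mb (0.55).

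**Figure D4:**
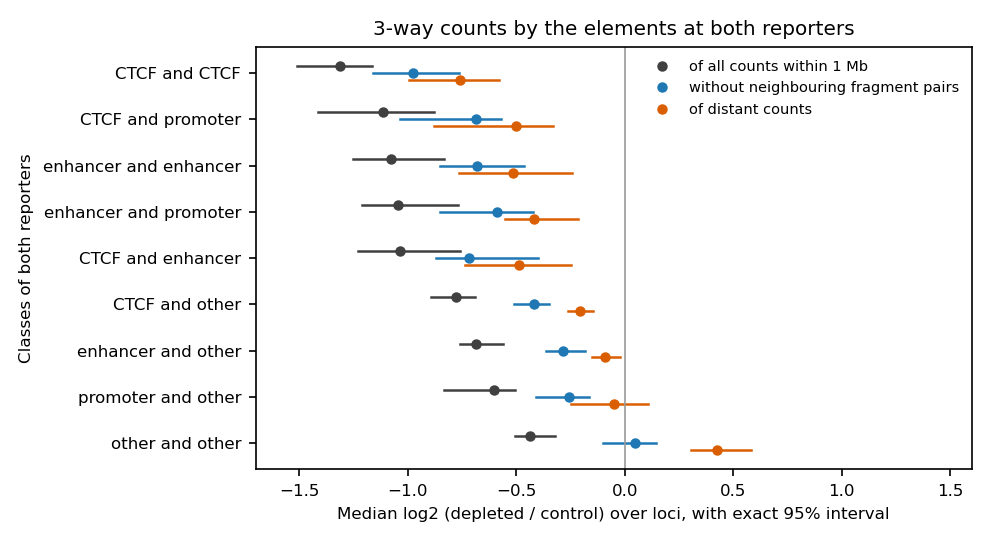
Median over loci of the log2 ratio, depleted over control (x axis), with its exact 95% interval, for pairs of reporters by the class of element at each (y axis), as a share of all counts within 1 Mb (dark), without neighbouring fragment pairs (blue) and of distant counts (orange). Pairs of CTCF sites are lowest on each scale, and pairs outside listed elements go from −0.44 to 0.43 between the first and the last scale.

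Single CTCF sites were then taken one at a time and split by the direction of their motif. Of the 467 listed sites with at least 20 counts, 357 fell and 13 rose, with a median log2 ratio of −0.89. Within 200 kb 226 of 282 fell, beside 70.7% of windows, and farther away 131 of 185, beside 28.4%. Among distant counts, 213 fell and 63 rose (−0.33). On that scale 134 of the 282 nearer sites fell and 31 rose, beside 27.1% and 18.9% of windows, and 79 of the 185 farther ones fell and 32 rose, beside 9.59% and 40.5%. The 220 sites with a motif toward the viewpoint had a median of −1.01 and 183 fell, the 89 with a motif away had −0.78 and 66 fell, and the 158 without a match had −0.70 and 108 fell. Beyond 200 kb, 83 of 105 with a motif toward the viewpoint fell, 21 of 30 with a motif away and 27 of 50 without a match, beside the 28.4% of windows given above. Less the windows at a similar distance, the medians were −0.49, −0.23 and −0.09. The medians of sites with a motif toward the viewpoint lay between −0.86 and −1.10 in all 5 distance classes from 16 kb to 1 Mb, while those of all windows went from −0.80 at 16 to 50 kb to −0.02 at 500 to 1000 kb. By position, the median was −1.14 at the boundary sites, −1.02 inside them, −0.70 beyond and −0.80 on the other side of the viewpoint. Sites of 1 locus share their libraries and often their windows, so these counts are not independent. The sites come from the same list of elements, so the limit given above for listed classes holds for them too.

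The site in the intron of DNAI7 seen from the IRAG2 viewpoint, 132.6 kb away and printed above with its motif toward the viewpoint, had the largest fall. It went from 1404 to 214 counts, 2.99% (2.83 to 3.14) to 0.351% (0.306 to 0.402), a log2 ratio of −3.12. Listed sites 279.1 and 283.1 kb from the CCR1 viewpoint went from 3262 to 401 counts (−3.06) and from 3403 to 432 counts (−3.02), and their windows overlap. On the side of the viewpoint without the boundary site, the DNTT site in an intron of CC2D2B, 218.7 kb away, went from 655 to 191 counts (−2.26). The PELI1 site 223.8 kb away went from 491 to 119 (−2.22) and the RAG2 site 127.8 kb away from 458 to 134 (−2.20). The motifs of these 3 sites, printed above, all point toward the viewpoint.

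Among the 13 sites that rose, the KDM7A site in an intron of SLC37A3, 90.1 kb away and beyond the boundary, went from 229 to 796 counts, 0.782% (0.684 to 0.890) to 1.25% (1.16 to 1.34), a log2 ratio of 0.68, although its motif points toward the viewpoint. The DDIT4 site 45.1 kb away, also beyond the boundary, has its motif pointing away and went from 103 to 246 counts (0.78). A listed site 121.2 kb from the LMO2 viewpoint, at the start of CAPRIN1, went from 158 to 492 counts (1.02), and held no match. Its window nearly coincides with the CAPRIN1 promoter window described below, so both hold largely the same counts. The KLF6 site 958.8 kb away went from 108 to 218 counts (0.78), also without a match.

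**Figure D5:**
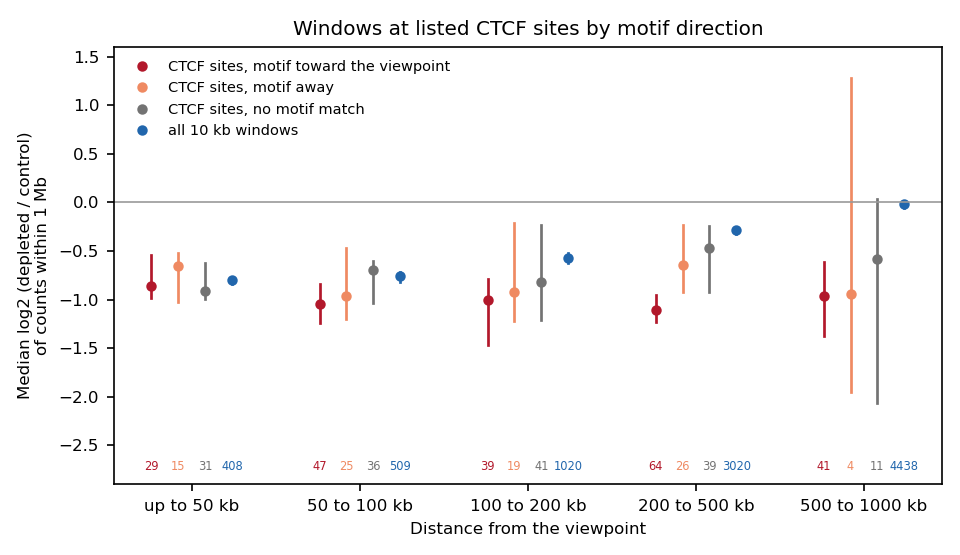
Median log2 ratio of the share of counts within 1 Mb, depleted over control (y axis), with its exact 95% interval, for windows at listed CTCF sites with the motif toward the viewpoint, away from it or without a match, and for all 10 kb windows, by distance from the viewpoint (x axis). The number of windows stands at the bottom, and for the group of 4 the line is their range; sites with the motif toward the viewpoint stay between −0.86 and −1.10 while all windows approach 0 with distance.

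Finally, the promoters of all other protein-coding genes within 1 Mb were followed, to ask whether contacts with further genes differed inside and beyond the boundary. Of 979 promoters, 893 reached 20 counts. Inside the boundary, 26 of 38 fell and none rose, with a median log2 ratio of −0.71, beside 82.8% and 0.401% of all windows there. On the scale of distant counts their median was −0.17, where 30.3% of the windows inside fell and 9.12% rose. Without neighbouring pairs 53.5% of the windows inside fell and 3.61% rose. Beyond it, 73 of 411 fell and 85 rose with a median of 0.03, beside 19.7% and 21.1% of all windows beyond it. Without neighbouring pairs, 155 of the 411 rose (0.40), beside 38.2% of windows that rose and 8.97% that fell. As a share of distant counts, 190 of the 411 rose and 18 fell (0.59), beside 49.3% and 5.11% of windows. The share of rising promoters beyond the boundary was thus near that of all windows there.

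The neighbouring genes SLC37A3 and CAPRIN1 both rose. They had been chosen for naming because the paper describes more contacts with them and higher expression of both after CTCF depletion. Their direction was therefore known before they were chosen. SLC37A3, a transporter gene whose start lies 145.3 kb from the KDM7A enhancer and beyond its boundary site, went from 71 to 358 counts, 0.243% (0.189 to 0.306) to 0.562% (0.505 to 0.623), a log2 ratio of 1.21 and 1.68 among distant counts. CAPRIN1, which encodes an RNA-binding protein of stress granules and lies 121.5 kb from the LMO2 enhancer on the side opposite to its boundary site, went from 160 to 488 counts, 0.479% (0.408 to 0.559) to 0.951% (0.869 to 1.04), a log2 ratio of 0.99 and 1.57 among distant counts. Windows of 10 kb away from these gene starts were higher too. At KDM7A, the window at 105 kb went from 1.61% of distant counts in the control to 4.87% after depletion. The window at 215 kb went from 0.482% to 1.75%. At LMO2, the window at 145 kb went from 0.987% to 3.42% and that at 165 kb from 0.776% to 2.88%. Farther out, at 205 kb, it was lower, at 0.705% and 0.422%. Whether either gene start rose more than its surroundings was not tested. In the same libraries the KDM7A promoter fell and the LMO2 promoter fell on the first scale only. Farther beyond the KDM7A boundary, DENND2A, a Rab exchange factor gene, went from 14 to 129 counts (2.04), while PARP12, on the other side of the viewpoint, went from 193 to 104 (−2.02).

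The other large rises named here started from few counts in the control. AKR1C3, an aldo-keto reductase gene 962.8 kb from the KLF6 enhancer, went from 13 to 75 counts (2.26), and NIPBL, the cohesin loader gene, 968.0 kb from the IL7R enhancer, from 22 to 111 (2.02). CST1, a cystatin gene seen from CD93, went from 33 to 130 counts (1.87), PSD2, seen from CD14, from 8 to 48 (1.99), and SIK3, a salt-inducible kinase gene seen from IL10RA, from 10 to 53 (1.87). The named falls began from more counts, a contrast that naming by the largest ratios favours in advance. RAG1, the partner of RAG2, has its start at the boundary window of the RAG2 locus and went from 1533 to 471 counts, 4.39% to 1.01% (−2.17). TACR2, a tachykinin receptor gene 355.4 kb from the SRGN enhancer, went from 115 to 24 counts (−2.71), HKDC1, a hexokinase-like gene of the same region, from 155 to 53 (−2.01), and CHST3, a sulfotransferase gene seen from DDIT4, from 100 to 31 (−2.16).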

How the data were processed

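Processed Tri-C files of both 96 h groups were used, in which the deposited counts are whole numbers of reads per pair of NlaIII reporter fragments, not normalised. The authors aligned reads to hg38 with CapCruncher in capture mode, merged the replicates, kept reads with at least 2 reporters on the viewpoint's chromosome and counted each pair. From these counts, shares of all counts within 1 Mb of the viewpoint, of those without neighbouring pairs (gap of at most 4 bases) and of distant counts were computed per locus (scipy 1.17.1 and pandas 2.3.3 on Python 3.11.15). All 752132 fragments matched those of an NlaIII digest of hg38. Single shares have Clopper-Pearson intervals, log2 ratios of odds (pseudocount 0.5) exact conditional binomial intervals, and medians over loci order statistic intervals, all at 95%. The odds ratios of E-P-X were tested on depleted libraries simulated from the control counts. That simulation set no difference in neighbouring pairs or contact distances, so it does not cover those differences between the libraries. Depth was 34249 to 286909 counts per locus and library.

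Gene starts were those of GENCODE v44 transcripts nearest to the study's promoter oligonucleotides, at most 1.2 kb away. The viewpoint fragment was taken from its capture oligonucleotide, except at 1 locus where the counts place it elsewhere. The loci IFNGR2 and TASL were left out. Elements came from the study's list. The members and lists were chosen with earlier results of these data known. Loci were named where the study discusses them, where they held the 6 largest rises or falls of a measure with at least 50 counts, or the 2 largest window counts of a list. Some single loci, promoters and sites that meet this rule are not reported here. Alternatives comprised neighbouring pairs, repeat counts, totals, window and distance settings, distance adjustment and the fold of the rule.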

Additional observations from a re-analysis of the deposited data

How the results depend on the processing

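No paired analysis was possible because the replicates of each group were pooled before deposit, and for the same reason none could be left out. Of 113 medians recomputed under alternatives, 67 stayed within their interval, 44 moved and 2 reversed, and of 79 counts of calls 65 stayed within 1.5-fold. The boundary crossing moved only when the mirrored position was taken off it, to a median of 0.26, and taking shares of all counts of the chromosome moved no value. Chosen after the data were seen were the canonical gene start, leaving out CCR1, the mirrored position, the choice of loci for triples over the product of their windows (−0.03 at loci chosen by observed counts), and each pair counted once as a share of distant counts.

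Leaving out neighbouring pairs gave medians of −0.38 for the distant share (25 loci lower), −0.57 for E-P-X, −0.75 for E-C-X, −0.97 for pairs of CTCF sites, −0.59 for enhancer with promoter, 0.045 for pairs outside listed elements, −0.53 for single CTCF sites, −0.37 for other promoters inside and 0.40 for those beyond (155 higher). Counting each fragment pair once gave, in the same order, −0.34 (22 lower), −0.58, −0.71, −1.02, −0.66, −0.0062, −0.53, −0.33 and 0.41 (140 higher). Among distant counts E-P-X had −0.38 (27 lower), E-C-X −0.55, pairs of CTCF sites −0.76, enhancer with promoter −0.42, pairs outside 0.43, single sites −0.33 (213 lower), promoters inside −0.17 and beyond 0.59 (190 higher). Both together gave −0.36 (25 lower), −0.61, −0.78, −0.41, 0.45, −0.32 (215 lower), −0.17 and 0.59 (173 higher). Less windows at a similar distance, E-P-X had −0.23 (15 lower), E-C-X −0.50, single sites −0.28 (202 lower), promoters inside −0.11 and beyond 0.21. Distances of 5 and 20 kb gave distant shares of −0.87 and −0.64. Windows of 7.5 kb gave −2.53 for E-P-C and −0.54 for pairs outside, and windows of 30 kb gave 39 lower for E-P-C, −1.11 for pairs of CTCF sites and −0.14 for pairs outside. Without sites near a listed enhancer or promoter, 191 of 266 sites fell.

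Of the single values named in the text, those below changed sign where at least 1 of both values passed the rule. E-P-X did so among distant counts at KLF6 (0.14), LMO2 (0.027), CREG1 (0.40) and EBF1 (0.39), and with pairs also counted once at KLF6 (0.15), LMO2 (0.044), CREG1 (0.41), CD38 (0.54) and IRAG2 (0.059). Adjusted for distance it did so at CEBPA (0.24), LMO2 (0.27), CREG1 (0.64), ITGAX (0.11), MYB (0.44), IL7R (0.24) and IRAG2 (0.18), and E-C-X at KDM7A (0.15). Pairs outside listed elements reversed among distant counts as given above. The cause was not tested. Single windows of under about 20 counts were not read, which left 19 triples unmeasured.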
